A study of Mus musculus with 12 samples.

Results

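The respiratory chain of the mitochondrion was followed through the genes for its protein subunits and assembly factors in islet cells of NOD mice, which develop diabetes by autoimmune attack on β-cells. Genes were taken when they were protein-coding and their symbol began with mt-, Nduf, Sdh, Uqcr or Atp5, or with Cox followed by 4, 5, 6, 7 or 8. The count table held 111 such rows, and 104 of them had a CPM (counts relative to the library's total) above 1 in at least 3 of the 12 samples. The CPM values printed below are in addition scaled between libraries. Of these 104 genes, 91 lie in the nuclear genome and 13 on the mitochondrial chromosome, which is its whole set of protein-coding genes. They were tested among 15598 genes, out of 52962 rows in the table.

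The chain passes electrons from NADH and succinate to oxygen and pumps protons across the inner mitochondrial membrane. Complex I oxidises NADH, complex II oxidises succinate, complex III reduces cytochrome c, complex IV reduces oxygen, and complex V uses the proton gradient to make ATP. Complexes I, III, IV and V mix nuclear with mitochondrially encoded subunits, whereas complex II is nuclear throughout. In β-cells the ATP made from glucose closes the KATP channel and so sets off insulin secretion.

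RNA was sequenced from islet cells of female NOD mice that were sorted by autofluorescence into β-cells and non-β-cells, at 4 and at 8 weeks of age. Each of the 4 groups had 3 samples, which the study describes as pools of 3 mice. By its methods the islets were cultured overnight and cells carrying CD45, the surface marker of leukocytes, were left out of the sort. No treatment, transgene or other strain was part of this series, so age and fraction are its contrasts, and p-values measure the spread between these pools.

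Totals ran from 13754913 to 27040436 counts, and the precision of low genes follows these totals. The summed β-cell markers, which include the insulin genes, lay between 32160 and 93050 CPM in the β samples and between 598.9 and 2533 CPM in the non-β samples. Alpha-cell markers, which include glucagon, lay between 1428 and 9071 CPM in β samples and between 103600 and 133200 CPM in non-β samples. Delta-cell, PP-cell, endothelial and mesenchymal markers were also higher in the non-β samples, a mixture in which alpha-cell RNA led. Of the duct markers Krt7 was higher in β samples, with group means of 856.6 and 739.6 CPM against 259.6 and 342.9 CPM, while Sox9 and Cftr were lower there at both ages. The CD45 gene Ptprc stayed at or below 0.4542 CPM in the mean of each group, and Cd3e, Lyz2 and Itgam at or below 0.3004 CPM. The other leukocyte markers listed were higher in β samples. Cd68 had group means of 48.77 and 69.6 CPM in β samples against 9.152 and 16.54 CPM in non-β samples at 4 and 8 weeks. Cd79a had 3.078 and 3.586 CPM against 0.4287 and 0.7256 CPM. Sample 3 of the 4-week β-cells stood apart: the median nuclear respiratory chain gene lay 0.78 above its 12-sample mean there on the log2 scale, against 0.16 and 0.06 in the other β samples of that age. Sample 3 of the 4-week non-β-cells stood apart in the same way, at 0.07 against −0.33 and −0.37. Results that change without these samples are given with and without them.

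The first question was whether β-cells and the other islet cells differ in respiratory chain RNA. Nuclear genes were higher in β-cells. At 4 weeks 51 of the 91 were higher and 0 were lower at a limma-voom adjusted p under 0.05, beside 24.9% higher and 23.7% lower among all tested genes. By edgeR and by DESeq2 the count lower was also 0, and 0 of the 91 were lower at an unadjusted p under 0.05, beside 4239 of all 15598 tested genes. At 8 weeks 59 were higher and 1, Ndufa4l2, was lower, beside 23.6% and 25.6% of all genes. The median nuclear gene was 0.57 higher at 4 weeks and 0.65 higher at 8 weeks on the log2 scale, or 1.49-fold and 1.57-fold, while the median of all tested genes was 0.00 and 0.01. Altogether 45 genes were called higher at both ages, 6 at 4 weeks alone, 14 at 8 weeks alone, and 25 at neither age. Fewer β-cells in a fraction and less RNA per cell cannot be told apart in such bulk samples.

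The mitochondrially encoded genes did not follow. At 4 weeks 1 of the 13, mt-Co1, was higher in β-cells and 6 were lower, beside 24.9% and 23.7% of all tested genes. At 8 weeks 3 were higher and 1 was lower, or 23.1% and 7.69%, beside 23.6% and 25.6% of all tested genes. The median difference between the fractions was −0.54 at 4 weeks and 0.27 at 8 weeks. Within complex I at 4 weeks, 24 of 38 nuclear subunit genes were higher in β-cells with 0 lower, while 5 of the 7 mitochondrially encoded genes were lower with 0 higher. Genes were assigned to complexes by symbol, so the 38 include Ndufa4, whose product is found with complex IV, and its relative Ndufa4l2. Whether these opposite directions share a source was not tested.

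**Figure D1:**
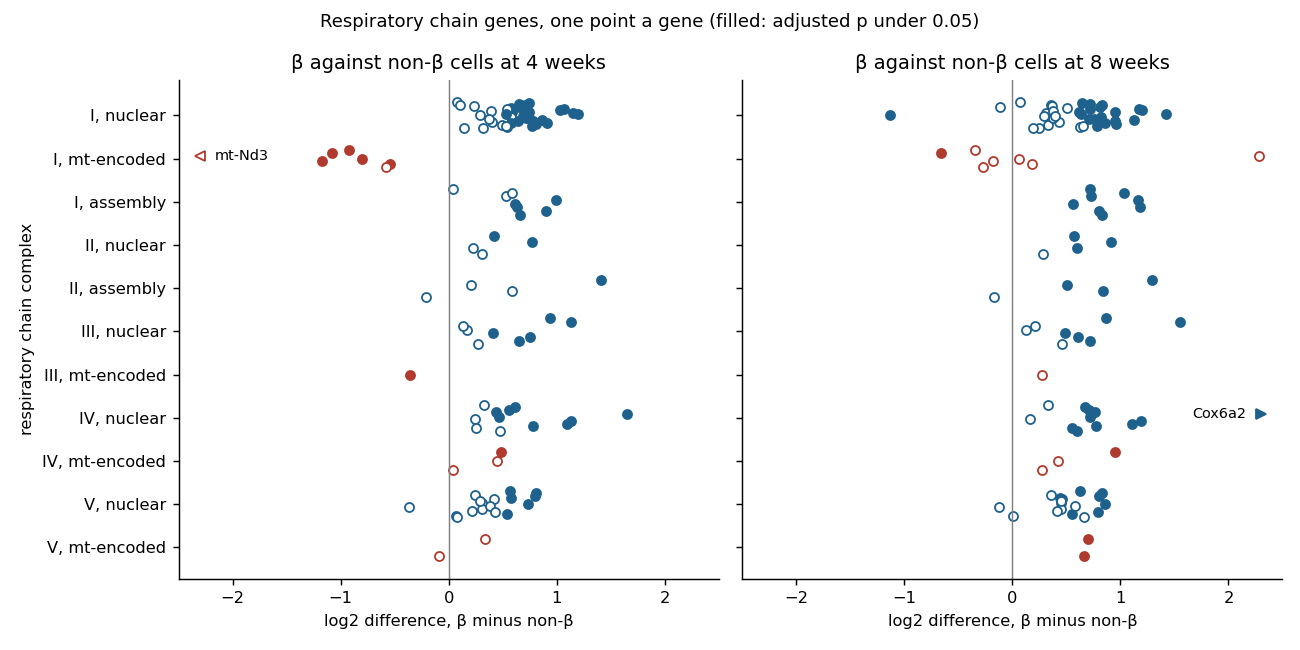
Log2 difference between β-cells and non-β-cells (x axis) for each tested respiratory chain gene, by complex and genome (y axis), at 4 weeks and 8 weeks; blue points are nuclear genes, red points are mitochondrially encoded genes, filled points passed an adjusted p under 0.05, and triangles lie beyond the axis. All filled blue points lie to the right of 0 except Ndufa4l2, at −1.14 at 8 weeks, while the filled complex I points in red lie to the left. The fitted values of mt-Nd3 and, at 8 weeks, of Cox6a2 rest on samples listed at 0.

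Among complex I assembly factors 5 of 8 were higher at 4 weeks and 8 of 8 at 8 weeks, beside 24 and 21 of the 38 subunit genes. In complex II, 2 of 4 subunit genes and 1 of 4 assembly factor genes were higher at 4 weeks, and 3 of 4 in either class at 8 weeks. In complex III 5 of 8 genes were higher at both ages. In complex IV 8 of 12 were higher at 4 weeks and 10 of 12 at 8 weeks. In complex V the counts were 6 of 17 and 9 of 17. The shares were not tested against each other. Median differences ran from 0.36 in the complex II subunits to 0.65 in the complex I subunits at 4 weeks and from 0.46 in complex V to 0.82 in the complex I assembly factors at 8 weeks.

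Among complex I genes Ndufb9, an accessory subunit, had the largest difference between the fractions that passed the test at both ages. Its CPM was 104.5, 103.6 and 172.3 in the 4-week β samples and 49.6, 41.6 and 75.6 in non-β-cells. In the 8-week samples it was 98.3, 104.1 and 108.5 against 33.6, 39.4 and 44.2. The fractions did not overlap at either age, and the log2 difference was 1.20 ± 0.22 (SE, adjusted p = 0.000683) at 4 weeks and 1.42 ± 0.23 (adjusted p = 0.000232) at 8 weeks. The annotation places Gm49356 on the same strand over Ndufb9 (chr15:58933756-58939488, build GRCm38), so reads of the pair could be divided between them.

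Ndufv1, which carries the NADH-binding site of complex I, was higher at both ages. It had 122.9, 108.8 and 166.4 CPM in 4-week β samples and 75.4, 89.4 and 110.6 CPM in non-β samples of that age, where the lowest β sample lay below the highest non-β sample. The difference at 4 weeks was 0.53 ± 0.17 (adjusted p = 0.0214) and it missed the threshold when sample 3 of the 4-week β-cells or sample 1 or 2 of the 4-week non-β-cells was left out (highest adjusted p = 0.0931). The 8-week difference was 0.64 ± 0.17 (adjusted p = 0.00827). Ndufs1, the largest core subunit of complex I, had means of 82.2 ± 5.5 and 74.5 ± 2.0 CPM at 4 weeks (SD, n = 3 each) and its difference of 0.14 ± 0.09 did not pass (adjusted p = 0.197). At 8 weeks its means were 80.1 ± 1.4 and 70.3 ± 1.2 CPM and the adjusted p was 0.0946, so neither age gave a call although the samples did not overlap.

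The catalytic subunits of complex II were both higher in β-cells. Sdha, the flavoprotein that oxidises succinate, had 216.7, 201.7 and 238.7 CPM in 4-week β samples and 157.3, 150.1 and 183.9 CPM in non-β samples of that age, and differed by 0.42 ± 0.11 (adjusted p = 0.0053). The 8-week difference was 0.57 ± 0.11 (adjusted p = 0.00064). Sdhb, the iron-sulfur subunit, differed by 0.78 ± 0.18 at 4 weeks (adjusted p = 0.00306) and by 0.91 ± 0.18 at 8 weeks (adjusted p = 0.00115). Among the assembly factors Sdhaf1, which takes part in fitting the iron-sulfur subunit, reached 1.41 ± 0.20 at 4 weeks (adjusted p = 7.4e-05) and 1.29 ± 0.21 at 8 weeks (adjusted p = 0.000207). Its CPM was 41.3, 39.6 and 57.7 in 4-week β samples and 17.6, 13.5 and 20.9 in non-β samples of that age. Sdhaf1 overlaps E130208F15Rik on the opposite strand.

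In complex III the spread between genes was wide. Uqcrq, a small subunit, had 127.4, 124.6 and 130.5 CPM in 8-week β samples and 35.2, 45.4 and 52.0 CPM in non-β samples of that age, which differed by 1.55 ± 0.21 on the log2 scale (adjusted p = 5.97e-05). Its 4-week difference was 1.13 ± 0.20 (adjusted p = 0.000591). Uqcrc1, a core protein, differed by 0.75 ± 0.16 and 0.60 ± 0.16 (adjusted p = 0.00171 and 0.00685). Uqcrfs1, the Rieske iron-sulfur protein through which electrons leave ubiquinol, did not pass at either age, with 98.1, 89.8 and 144.8 CPM in 4-week β samples beside 85.3, 103.0 and 101.2 CPM in non-β samples of that age (log2 difference 0.17 ± 0.16, adjusted p = 0.392).

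Complex IV holds several subunits that come in a general and a tissue form. Cox6a2, the form known from heart and skeletal muscle, had the largest difference in the complex. Its CPM was 7.43, 8.80 and 13.3 in 4-week β samples and 2.64, 3.62 and 3.01 in non-β samples of that age. In 8-week samples it was 5.92, 7.16 and 8.71 in β-cells, while 2 of the 3 non-β samples had 0 counts and the third had 7. The 4-week log2 difference was 1.65 ± 0.31 (adjusted p = 0.00086), and the fitted value at 8 weeks passed the test (adjusted p = 0.000965) but its size rests on those zeros and is not given as a fold. Cox6a2 (chr7:128205435-128206387) overlaps Itgad, an integrin gene, on the opposite strand.

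Cox6a1, its general partner, was the more abundant form in all samples, with 151.2, 156.3 and 258.3 CPM in 4-week β samples and 94.8, 92.7 and 138.1 CPM in non-β samples of that age. Its differences of 0.78 ± 0.21 and 0.77 ± 0.21 passed at both ages (adjusted p = 0.00764 and 0.00817). Per kilobase of transcript, Cox6a1 had a mean of 330.3 CPM and Cox6a2 14.5 CPM in 4-week β-cells. Cox7a2l, a form found in supercomplexes, had 293.2, 302.0 and 483.8 CPM in β-cells and 153.4, 143.9 and 200.5 CPM in non-β-cells, and its difference was 1.09 ± 0.20 and 1.099 ± 0.20 at the 2 ages (adjusted p = 0.000595 and 0.000498).

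Cox7a2, the general form beside it, differed by 0.62 ± 0.23 and 0.67 ± 0.24 (adjusted p = 0.0436 and 0.0313). These calls were fragile: 8 of 12 omissions of 1 library ended the first and 5 ended the second. Cox8a differed by 0.46 ± 0.16 and 0.72 ± 0.16 (adjusted p = 0.0254 and 0.00201), the former lost without sample 3 of the 4-week β-cells or sample 1 or 2 of the 4-week non-β-cells (highest adjusted p = 0.0949). Cox6b1 passed at 8 weeks alone, at 0.60 ± 0.22 (adjusted p = 0.0388, lost in 5 of 12 omissions, highest adjusted p = 0.191), and at 4 weeks its difference was 0.48 ± 0.22 (adjusted p = 0.086). Cox4i1, the general form of subunit 4, did not pass at either age (0.33 ± 0.21 at both, adjusted p = 0.211 and 0.203). The tissue forms Cox4i2, Cox6b2, Cox7a1, Cox7b2, Cox8b and Cox8c, and a second Atp5o row, were the 7 rows under the filter, at no more than 1.73 CPM in any sample.

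Ndufa4 and Ndufa4l2 are another pair of forms. Ndufa4, whose product is found with complex IV, was 1.03 ± 0.25 higher in β than in non-β samples at 4 weeks and 1.20 ± 0.27 higher at 8 weeks (adjusted p = 0.00426 and 0.00235). Its hypoxia-inducible relative Ndufa4l2 had 1.58, 1.07 and 2.38 CPM in 4-week β samples and 1.76, 0.832 and 1.28 CPM in non-β samples of that age, and the fractions overlapped. The 8-week values were 2.82, 1.17 and 1.89 CPM in β-cells against 3.12, 3.73 and 5.395 CPM in non-β-cells, which did not overlap. Its 8-week difference was −1.14 ± 0.39 (adjusted p = 0.0286). The call was lost without β-cell sample 2 or 3 or non-β sample 3 of that age (highest adjusted p = 0.141), and it did not pass by edgeR's test (adjusted p = 0.0816). Ndufa4l2 overlaps Shmt2 on the opposite strand.

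In complex V the alpha subunit gene Atp5a1 was higher at both ages, by 0.57 ± 0.12 and 0.63 ± 0.12 (adjusted p = 0.00132 and 0.000591). The catalytic beta subunit gene Atp5b had the highest level per kilobase of all nuclear members in every group, with means from 322.2 CPM in 8-week non-β-cells to 436.2 CPM in 8-week β-cells. It passed at 8 weeks, at 0.45 ± 0.15 (adjusted p = 0.021), and not at 4 weeks, at 0.31 ± 0.15 (adjusted p = 0.0928). The 8-week call was lost without β-cell sample 2 or 3 or non-β sample 1 (highest adjusted p = 0.0956). The gamma subunit gene Atp5c1 differed by 0.54 ± 0.18 and 0.55 ± 0.18 (adjusted p = 0.0233 and 0.0216), and each call was lost in 3 of 12 omissions (highest adjusted p = 0.0879 and 0.106). The inhibitory factor of complex V carries another symbol in the annotation and so was not among the members.

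The nuclear counts depended on single libraries. Over the omission of each library in turn the number called at 4 weeks ran from 35 to 62, and at 8 weeks from 33 to 76. The 33, of which 32 were higher and 1 lower, came from leaving out sample 1 of the 8-week non-β-cells, where the median nuclear gene lay 0.61 below its mean. The shares of all tested genes moved with the omissions too, and without that sample 18.5% were higher and 22.5% lower at 8 weeks. Without sample 3 of the 4-week β-cells the 4-week count was 37, all higher, with a median of 0.35, beside 23.6% of all tested genes higher and 20.3% lower. The 35 came from leaving out sample 1 or sample 2 of the 4-week non-β-cells, again all higher. Of all tested genes 21.2% were higher and 20.1% lower without sample 1, and 20.9% and 21.5% without sample 2.

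Nuclear members are short transcripts, with a median of 714 bases against 2403.5 for all tested genes with a known length. Short transcripts in general were higher in β-cells. With the tested genes split into 5 length classes of equal size, among the other genes of the shortest class, from 63 to 1195 bases, the median difference was 0.24 at 4 weeks and 0.23 at 8 weeks, and among those of the longest class it was −0.26 and −0.21. The 67 members of the shortest class had medians of 0.57 and 0.71, and 55.2% and 65.7% of them were called higher, beside 27.2% and 23.1% of the other genes of that length. Of the 24 longer members 14 were higher at 4 weeks and 15 at 8 weeks. When each sample's trend with length and GC content was removed, 54 members were higher at 4 weeks and 69 at 8 weeks, with 0 and 1 lower. The correction moved all genes too: 37% of all tested genes were then called higher at 4 weeks and 43% at 8 weeks, and their median went to 0.19 and 0.32. The members' medians under it were 0.46 and 0.64.

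**Figure D2:**
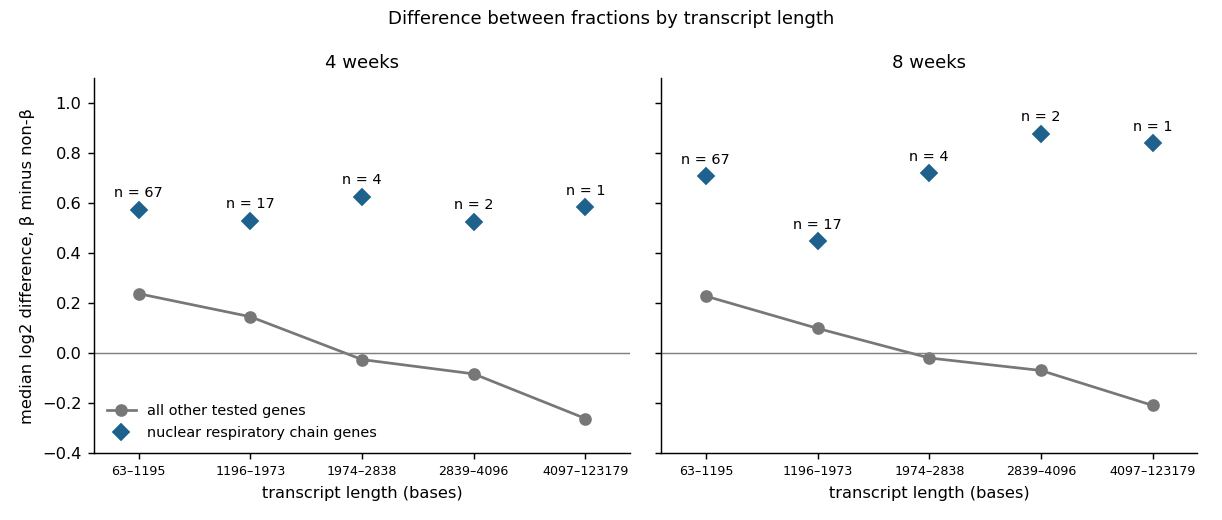
Median log2 difference between β-cells and non-β-cells (y axis) by class of transcript length in bases (x axis), for nuclear respiratory chain genes (diamonds, with their number) and for all other tested genes (grey line). The grey line falls from 0.24 to −0.26 at 4 weeks and from 0.23 to −0.21 at 8 weeks, and the diamonds lie above it in each class, although the last 3 classes hold only 4, 2 and 1 members.

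Other short or mitochondrial genes give the scale of this difference. Among all tested genes 24.9% were higher and 23.7% lower at 4 weeks, and 23.6% and 25.6% at 8 weeks. The cytosolic ribosome, whose transcripts are also short, had 5 of 91 genes higher and 3 lower at 4 weeks and 4 higher and 3 lower at 8 weeks, with medians of −0.05 and 0.09. The mitochondrial ribosome had 53 of 78 genes higher at 4 weeks and 50 at 8 weeks with 0 lower, and medians of 0.70 and 0.58. By unadjusted p under 0.05 the numbers lower there were also 0, beside 4239 and 4422 of all 15598 tested genes. Further respiratory chain genes outside the chosen symbols, such as cytochrome c and complex IV assembly factors, had 15 of 24 higher at both ages. The citrate cycle had 8 and 9 of 13 higher. The genes for expression of mitochondrial DNA and its nuclear regulators had 5 higher and 5 lower of 23 at 4 weeks and 4 and 3 at 8 weeks. These were 21.7% each way and then 17.4% and 13%, near or below the shares of all tested genes. In a list of NADH shuttle genes with further mitochondrial carriers and uncoupling genes, 8 genes were higher and 2 lower of 14 at 4 weeks, and 6 and 1 at 8 weeks.

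RNA kept in the nucleus moved the other way. Of 6 nuclear-retained RNAs 5 were lower in β than in non-β samples at 4 weeks and 4 lower with 1 higher at 8 weeks, and their summed level was 294.6 to 527.8 CPM in 4-week β-cells and 1166 to 2261 CPM in 4-week non-β-cells. At 8 weeks it was 1113 to 1401 CPM and 1536 to 2084 CPM. Its part in the respiratory chain differences was not tested.

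Nuclear respiratory chain promoters are known for sites of NRF1, a factor that drives many of these genes. Promoters from RefSeq, covering 250 bases before to 50 after the start site, were matched for 76 of the 91 nuclear genes. The NRF1 core GCGCATGC, searched on both strands, was present in 15.8% of them, beside 5.18% of the promoters of all tested genes and 2.8% of all promoters. The ETS motif CCGGAAG was in 26.3%, beside 17.3% and 9.12%. The YY1 motif AAGATGGC was in 13.2%, beside 4.51% and 2.88%, and the ERR motif TCAAGGTCA in 2.63%, beside 0.257% and 0.407%. Promoters of members on chromosomes 8 and 18 were left out of the ranking that follows. Among the rest, the 5 holders of the NRF1 core with the largest 8-week difference between the fractions are shown. They are given as stretches of 60 bases on the gene's own strand, with the match in capitals. Where the capitals run to 10 letters, matches on both strands overlap.
Ndufaf4, chr4:24897944-24898003, plus strand, 113 bases before the start site: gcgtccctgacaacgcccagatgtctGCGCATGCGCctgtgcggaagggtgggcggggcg
Ndufa11, chr17:56717676-56717735, plus strand, 60 bases before: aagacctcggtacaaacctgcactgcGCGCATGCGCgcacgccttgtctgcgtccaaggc
Sdhb, chr4:140961191-140961250, plus strand, 54 bases before: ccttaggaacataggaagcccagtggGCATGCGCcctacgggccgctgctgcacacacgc
Cox6a1, chr5:115349087-115349146, minus strand, 162 bases before: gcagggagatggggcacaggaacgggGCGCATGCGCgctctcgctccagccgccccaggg
Atp5k, chr5:108434416-108434475, minus strand, 50 bases before: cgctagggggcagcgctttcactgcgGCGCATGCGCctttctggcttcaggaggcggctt
The coordinates are of build GRCm38.p6. The 8-week differences of these genes were 1.18, 0.95, 0.91, 0.77 and 0.66 on the log2 scale, of which that of Atp5k was not called. A match is a run of letters and no evidence that a factor was bound.

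Mitochondrially encoded RNA made up 1.38% to 2.48% of each sample's counts and nuclear members 0.448% to 1.09%. Per kilobase the median mitochondrially encoded gene had a level of 695 CPM in 4-week β-cells, 823 in 8-week β-cells, 1207 in 4-week non-β-cells and 859 in 8-week non-β-cells. The median nuclear gene had 98.7, 90.4, 68.5 and 59.7 CPM per kilobase in the same order. In each group mt-Co1, the catalytic core of complex IV, had the highest level, at 3219 to 6299 CPM per kilobase, followed by mt-Co2 and mt-Co3. mt-Nd6, which alone among the 13 lies on the light strand, had the lowest, at 3.52 to 5.30 CPM per kilobase, and gave no call in any comparison.

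The complex I genes carried the 4-week difference. mt-Nd2 had 370.7, 437.9 and 409.0 CPM in β-cells and 853.0, 935.7 and 784.9 CPM in non-β-cells, and the fractions lay far apart. At 8 weeks it had 364.3, 358.5 and 429.4 CPM against 589.2, 587.8 and 638.6 CPM. The log2 difference was −1.08 ± 0.11 at 4 weeks (adjusted p = 4.22e-06) and −0.66 ± 0.11 at 8 weeks (adjusted p = 0.000232), and both calls held without any 1 library.

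mt-Nd1 had 644.4, 763.5 and 841.0 CPM in 4-week β samples and 1352, 1486 and 1393 CPM in non-β samples of that age, a difference of −0.92 ± 0.14 (adjusted p = 0.00015). At 8 weeks the fractions overlapped and the difference was −0.35 ± 0.14 (adjusted p = 0.0533). mt-Nd4 differed by −0.80 ± 0.12 at 4 weeks (adjusted p = 0.00018) and by 0.06 ± 0.12 at 8 weeks (adjusted p = 0.726). mt-Nd4l differed by −1.17 ± 0.25 and −0.18 ± 0.25 (adjusted p = 0.00206 and 0.57). mt-Nd5 differed by −0.54 ± 0.16 at 4 weeks (adjusted p = 0.0115), a call lost without sample 1 or 2 of the 4-week non-β-cells (highest adjusted p = 0.0544), and by 0.18 ± 0.16 at 8 weeks (adjusted p = 0.349).

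mt-Cytb, the mitochondrial subunit of complex III, was 0.35 ± 0.11 lower in 4-week β samples than in their non-β counterparts (adjusted p = 0.0181). The call was lost without sample 1 or 2 of the 4-week β-cells or sample 1 or 3 of the 4-week non-β-cells (highest adjusted p = 0.0838). At 8 weeks it lay at 2351, 2651 and 2903 CPM in β-cells and 2062, 2137 and 2345 CPM in non-β-cells, with a difference of 0.27 ± 0.11 that did not pass (adjusted p = 0.0586).

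In complexes IV and V the calls were higher in β-cells: mt-Co1 at both ages, and mt-Atp6 and mt-Atp8 at 8 weeks. mt-Co1 had 6828, 7563 and 6490 CPM in 4-week β samples and 5138, 5149 and 4633 CPM in non-β samples of that age, and 8493, 9335 and 11370 CPM against 4437, 5254 and 5396 CPM at 8 weeks. The fractions did not overlap at either age, with differences of 0.48 ± 0.12 (adjusted p = 0.0063) and 0.95 ± 0.12 (adjusted p = 4.14e-05). mt-Co2 and mt-Co3 did not pass at either age, with differences between 0.04 and 0.45. mt-Atp6 was 0.70 ± 0.21 higher at 8 weeks (adjusted p = 0.0124), a call lost without sample 3 of the 8-week β-cells (adjusted p = 0.0639) and, at 0.32, with the length and GC trend removed (adjusted p = 0.152). mt-Atp8, whose reading frame overlaps that of mt-Atp6, was 0.66 ± 0.18 higher (adjusted p = 0.00778), but with each sample's length and GC trend removed its difference turned to −0.13.

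**Figure D3:**
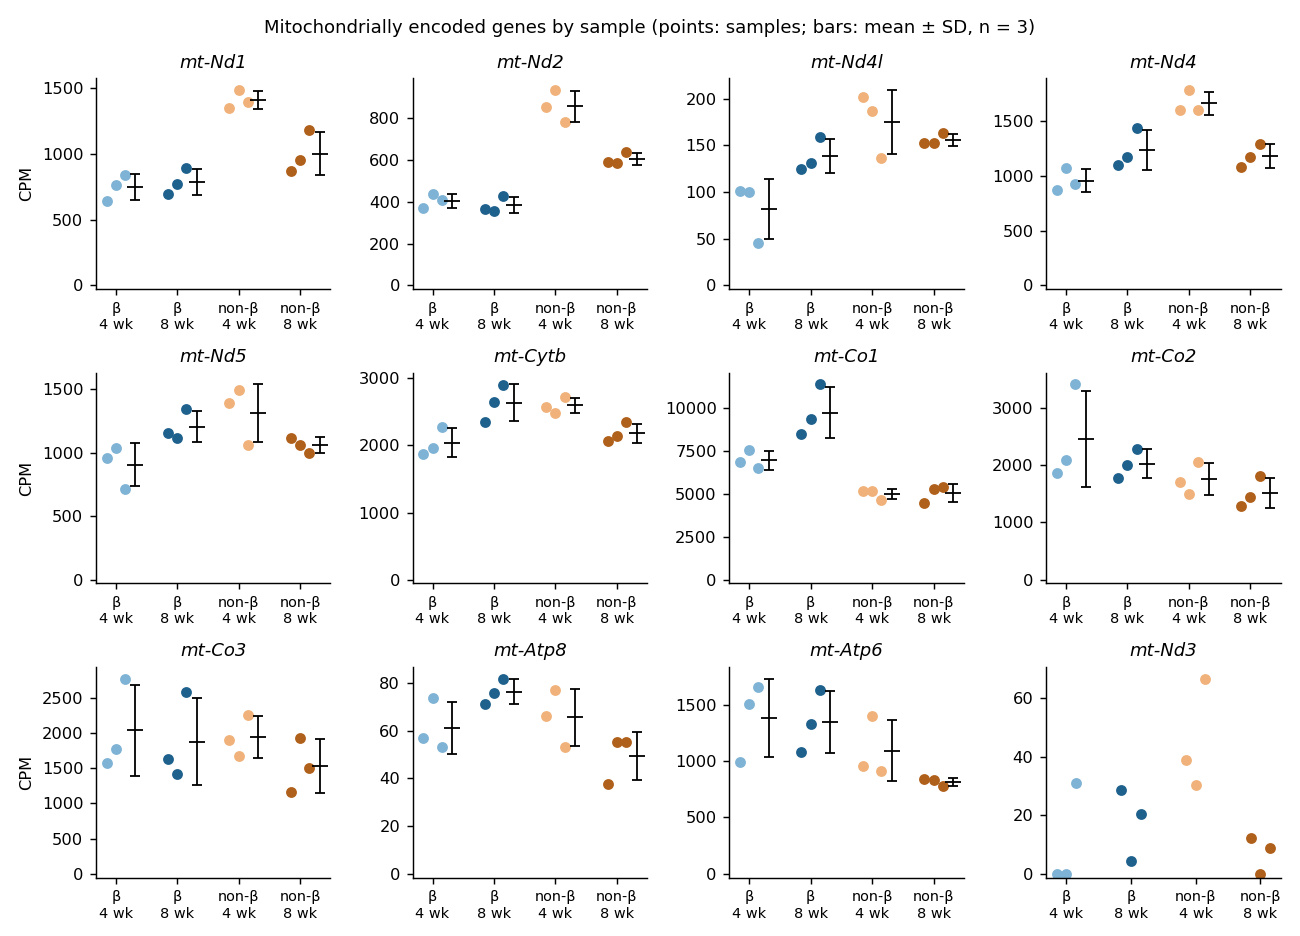
CPM (y axis) of 12 mitochondrially encoded genes in each sample (points) by group (x axis), with mean ± SD of 3 samples as bars, which mt-Nd3 lacks because 3 of its samples are listed at 0; mt-Nd6 is not drawn. The complex I genes mt-Nd1, mt-Nd2 and mt-Nd4 are highest in 4-week non-β-cells, at 1352 to 1486, 784.9 to 935.7 and 1600 to 1785 CPM, whereas mt-Co1 is highest in 8-week β-cells, at 8493 to 11370 CPM.

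Part of these reads could not be assigned to one genome with certainty. The annotation of chromosome 1 holds a nuclear copy of mitochondrial DNA on its minus strand, whose gene models begin at 24611535 and end at 24616197. It includes Gm10925, which matched mt-Atp6 over its length without a difference, and Gm29216, which matched part of mt-Co1 with 6 differences. The copy took 21.1% to 55.1% of the summed counts of mt-Atp6 and Gm10925, 12.95% to 33.2% of those of mt-Co1 and 4.25% to 39.4% of those of mt-Co3. For mt-Nd4 and mt-Nd4l the copies stood at 0 counts in all 12 samples.

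mt-Nd3 was most exposed to this. It was listed at 0 in samples 1 and 2 of the 4-week β-cells and in sample 2 of the 8-week non-β-cells, while its copy Gm28438 had 45.1, 51.1 and 81.1 CPM there. The reference sequences of the pair differ by a single substitution, T3C, with bases counted from the first base of mt-Nd3. The first 42 bases are shown with that base in capitals.
mt-Nd3, chrM:9459-9806, plus strand: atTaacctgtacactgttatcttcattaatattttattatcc
Gm28438, chr1:24612775-24613119, minus strand: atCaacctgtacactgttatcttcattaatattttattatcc
The mitochondrial sequence of the mice themselves was not read here. With the pair summed, mt-Nd3 had means of 59.0 ± 19, 36.7 ± 4.2, 133.3 ± 13 and 84.4 ± 18.04 CPM in β-cells at 4 and 8 weeks and non-β-cells at 4 and 8 weeks (SD, n = 3 each). On that scale it was 1.22 ± 0.20 lower in β than in non-β samples at 4 weeks (adjusted p = 0.000265) and 1.18 ± 0.21 lower at 8 weeks (adjusted p = 0.000409), whereas mt-Nd3 alone gave no call. Summing copies for all members left 7 mitochondrially encoded genes lower and 1 higher at 4 weeks, and 2 lower and 3 higher at 8 weeks.

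Nuclear members share reads with processed copies too. The copies held 80.1% of the summed counts of Atp5g2, 66.1% for Ndufa12, 49.4% for Ndufb4, 38.0% for Ndufab1 and 34.9% for Atp5g1, so the levels of these 5 genes alone are uncertain. With copies added 53 nuclear members were called at 4 weeks, all higher, and 62 at 8 weeks, of which 61 were higher.

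The second question was what changed between 4 and 8 weeks in each fraction. In β-cells 0 of the 91 nuclear genes rose and 2 fell, beside 8.59% of all tested genes higher and 9.35% lower. At an unadjusted p under 0.05 the numbers were 0 and 4, beside 2384 and 2442 of all 15598 tested genes, and the edgeR test gave 0 and 2. The median nuclear gene changed by −0.05.

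Ndufa9, an accessory subunit of complex I (chr6:126821721-126849136), had 72.2, 70.2 and 97.8 CPM in the 4-week β samples and 43.0, 41.7 and 39.1 CPM at 8 weeks. The ages did not overlap, and the gene fell by 0.94 on the log2 scale (SE 0.15, adjusted p = 0.00102). The call held without any 1 library, the highest adjusted p being 0.00771. Ndufa9 has an antisense gene, 1700018A23Rik, over it.

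The count for β-cells over age was small and depended on how the divergent sample was treated. With sample quality weights 10 nuclear genes rose and 4 fell, beside 16.6% and 17.9% of all tested genes, and without sample 3 of the 4-week β-cells 2 rose and 2 fell with a median of 0.17. With the length and GC trend removed 0 rose and 9 fell, beside 8.38% and 19.7% of all genes. Sample 3 of the 4-week β-cells also stood 0.47 above the mean in the median of the shortest length class and 0.60 above it in the median of the cytosolic ribosome, and the part of either was not tested.

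**Figure D4:**
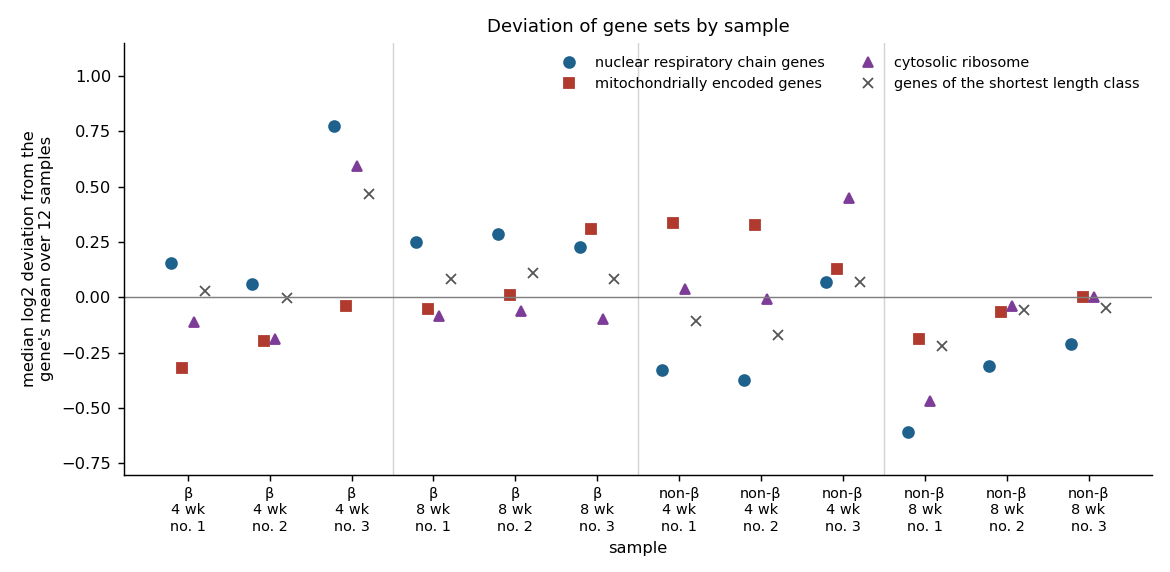
Median log2 deviation (y axis) of 4 gene sets from each gene's mean over all samples, in each of the 12 samples (x axis): nuclear respiratory chain genes, mitochondrially encoded genes, the cytosolic ribosome and the shortest length class of all tested genes. Sample 3 of the 4-week β-cells has the highest nuclear median, 0.78, with its ribosome at 0.60 and short genes at 0.47, and sample 1 of the 8-week non-β-cells has the lowest, −0.61.

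Among mitochondrially encoded genes in β-cells 3 rose with age and 0 fell, beside 8.59% of all tested genes higher and 9.35% lower. At an unadjusted p under 0.05 the numbers were 5 and 0, beside 2384 higher and 2442 lower of all 15598 tested genes. mt-Nd4l rose from 100.7, 99.7 and 45.1 CPM to 125.1, 130.7 and 159.0 CPM (log2 0.84 ± 0.25, adjusted p = 0.035). Its call was lost in 4 of 12 omissions of 1 library, where the difference ran from 0.46 to 1.02 (highest adjusted p = 0.127). Among these was sample 3 of the 4-week β-cells, the sample at 45.1 CPM (adjusted p = 0.0591 without it). The call was also lost by edgeR's test. mt-Co1 rose by 0.48 ± 0.13 (adjusted p = 0.0201), but by 0.33 ± 0.12 with its copy added (adjusted p = 0.0705). mt-Cytb rose by 0.37 ± 0.11 (adjusted p = 0.0349). None of the 3 held against every omission of 1 library: 0 genes were called without sample 2 or without sample 3 of the 8-week β-cells, and 1 without sample 1 of the 4-week β-cells. With the length and GC trend removed the median change of the 13 genes turned, to −0.31 in place of 0.33. Under that correction 0 genes rose and 2 fell (mt-Nd2 and mt-Co2), beside 8.38% and 19.7% of all tested genes. The 3 genes named above kept a difference above 0 there but were not called. The median of all tested genes went to −0.11 under that correction. mt-Nd4 and mt-Nd5 did not overlap between ages either but missed the threshold, at 0.37 ± 0.12 and 0.43 ± 0.16 (adjusted p = 0.0571 and 0.0743).

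In non-β-cells 1 nuclear gene rose and 2 fell with age, beside 11.6% of all tested genes higher and 4.8% lower, and the median nuclear gene changed by −0.17. Ndufa4l2 had 1.76, 0.832 and 1.28 CPM at 4 weeks and 3.12, 3.73 and 5.395 CPM at 8 weeks, and rose by 1.62 ± 0.46 (adjusted p = 0.0296). Cox6a2 had 2.64, 3.62 and 3.01 CPM at 4 weeks, from 69, 74 and 61 counts, and 0, 0 and 0.360 CPM at 8 weeks, a fall that passed the test (adjusted p = 0.0121). Ndufaf4, an assembly factor of complex I, had 17.2, 25.1 and 23.0 CPM at 4 weeks and 11.7, 12.5 and 11.1 CPM at 8 weeks, and fell by 0.86 (SE 0.22, adjusted p = 0.0171).

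Each of these 3 calls was lost on leaving out at least 1 library. For Cox6a2 that was sample 1 of the 8-week non-β-cells (adjusted p = 0.0845). For Ndufaf4 it was that sample, sample 3 of the same group or sample 2 of the 4-week non-β-cells (highest adjusted p = 0.0663). For Ndufa4l2 it was any 4-week non-β sample or sample 3 of the 8-week group (highest adjusted p = 0.0925). The number called fell to 1 without sample 2 of the 4-week non-β-cells or sample 1 or 3 of the 8-week non-β-cells, and rose to 5 without sample 3 of the 4-week β-cells. With the length and GC trend removed it rose to 44, of which 43 fell, but 29.9% of all tested genes also fell then, and the median of all genes was −0.24.

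The makeup of the non-β fraction moved with age as well. Summed endothelial markers went from 27.9 to 58.8 CPM at 4 weeks to between 232.1 and 668.2 CPM at 8 weeks, mesenchymal markers from 98.5 to 276.9 CPM to between 604.1 and 961.1 CPM, and acinar markers from 34.2 to 97.6 CPM to between 217.0 and 879.8 CPM. The β fraction moved too: alpha-cell markers went from between 5435 and 9071 CPM to between 1428 and 2464 CPM, acinar markers from between 105.4 and 226.0 to between 492.3 and 1032 CPM, and the β-cell markers from between 32160 and 58640 to between 88240 and 93050 CPM. The part of these cells in the age changes of either fraction was not tested.

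Of the 13 mitochondrially encoded genes in non-β-cells 0 rose, 3 of complex I fell and 10 were not called, beside 11.6% of all tested genes higher and 4.8% lower. By unadjusted p under 0.05 the numbers were 0 and 6, beside 2762 higher and 1668 lower of all 15598 tested genes. mt-Nd2 fell by 0.50 (SE 0.11, adjusted p = 0.00578), a call that held without any 1 library. mt-Nd1 fell by 0.50 (SE 0.14, adjusted p = 0.0242) and mt-Nd4 by 0.49 (SE 0.12, adjusted p = 0.0144). The last 2 calls were lost without sample 2 of the 4-week or sample 1 of the 8-week non-β-cells, and that of mt-Nd1 also without sample 3 of the 4-week or sample 2 of the 8-week group (highest adjusted p = 0.0948 for mt-Nd1 and 0.0622 for mt-Nd4). mt-Nd3 summed with its copy fell by 0.68 in non-β-cells (SE 0.20, adjusted p = 0.0297) and by 0.64 in β-cells (SE 0.21, adjusted p = 0.0492).

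Whether age acted differently in the fractions was tested by subtracting the change in non-β samples from the change in β samples. For nuclear genes 1 was higher and 1 lower by this measure, and for mitochondrially encoded genes 2 were higher and 0 lower, beside 1.8% and 3.33% of all tested genes. At an unadjusted p under 0.05, 9 mitochondrially encoded genes were higher and 0 lower, beside 1289 higher and 1700 lower of all 15598 tested genes. mt-Nd4 was higher in all 8-week than in all 4-week β samples and lower in all 8-week than in all 4-week non-β samples. It had 875.4, 1075 and 923.2 CPM in the 4-week β samples and 1096, 1176 and 1441 CPM at 8 weeks, and 1605, 1785 and 1600 CPM in the 4-week non-β samples and 1082, 1176 and 1295 CPM at 8 weeks. The difference of the changes was 0.86 ± 0.17 (adjusted p = 0.0123), and it held without any 1 library (highest adjusted p = 0.0386). With the length and GC trend removed it was 0.55 and did not pass (adjusted p = 0.119), and 0 mitochondrially encoded genes were called, beside 6.52% of all genes higher and 3.84% lower.

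mt-Cytb differed between the fractions in the same direction, by 0.62 ± 0.16 (adjusted p = 0.0368), with β-cells going from 1877, 1959 and 2283 CPM to 2351, 2651 and 2903 CPM and non-β-cells from 2578, 2492 and 2721 CPM to 2062, 2137 and 2345 CPM. Leaving out 1 library ended this call in 10 of 12 cases (highest adjusted p = 0.119). Ndufa9 differed by −0.84 ± 0.23 (adjusted p = 0.0499), with non-β-cells at 31.3, 35.8 and 41.2 CPM and then 28.5, 33.7 and 38.9 CPM beside the fall in β-cells given above. That call was lost in 9 of 12 omissions (highest adjusted p = 0.135). Cox6a2 passed as well (adjusted p = 0.0484) and was lost in 11 of 12 (highest adjusted p = 0.179).

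**Figure D5:**
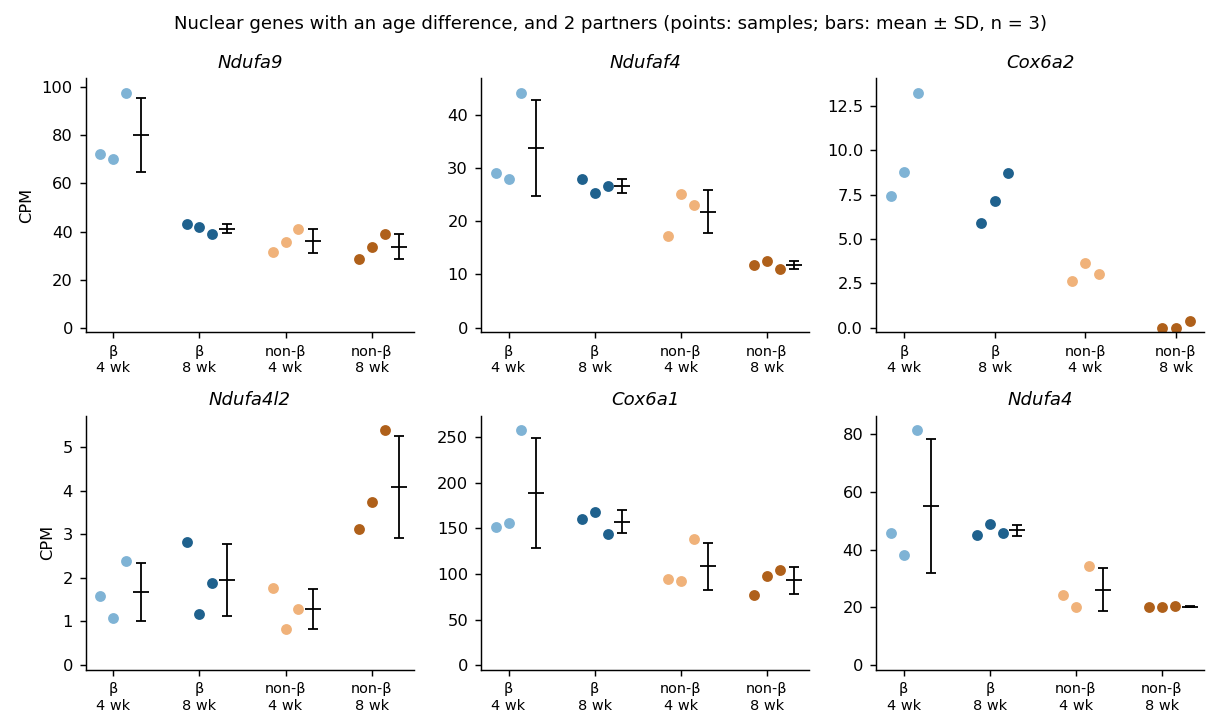
CPM (y axis) of Ndufa9, Ndufaf4, Cox6a2 and Ndufa4l2, and of Cox6a1 and Ndufa4 as the general partners of Cox6a2 and Ndufa4l2, in each sample (points) by group (x axis), with mean ± SD of 3 samples as bars, which Cox6a2 lacks. Ndufa9 falls in β-cells from between 70.2 and 97.8 to between 39.1 and 43.0 CPM and does not separate by age in non-β-cells, and Cox6a2 reaches 0 in 2 of the 3 8-week non-β samples.

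Other mitochondrial lists were counted over age too. In β-cells 11 of 78 mitochondrial ribosome genes, or 14.1%, fell and 0 rose, beside 9.35% of all tested genes lower. The median of this list lay 0.84 above its mean in sample 3 of the 4-week β-cells, against 0.26 and 0.23 in the other samples of that group. Those that fell were led by Mrps6 (34.5 to 12.98 CPM in group means, log2 −1.37 ± 0.22, adjusted p = 0.00111) and Mrpl9 (log2 −0.74 ± 0.14, adjusted p = 0.00301). In non-β-cells 0 rose and 0 fell by limma-voom, beside 11.6% and 4.8% of all tested genes. At an unadjusted p under 0.05 the numbers were 0 and 3, beside 2762 and 1668 of all 15598 tested genes. In the citrate cycle of β-cells Suclg2, a succinyl-CoA ligase subunit, fell by 0.70 (SE 0.12, adjusted p = 0.00149) and Ogdh, of the oxoglutarate dehydrogenase complex, rose by 0.51 ± 0.12 (adjusted p = 0.00921). In the list of shuttle, carrier and uncoupling genes 1 of 14 rose and 1 fell in each fraction, or 7.14% each way. In β-cells Slc25a1 fell by 0.63 (SE 0.16, adjusted p = 0.0139). Gpd2, the mitochondrial glycerol phosphate dehydrogenase, rose there by 0.56 ± 0.16 (adjusted p = 0.0271). In non-β-cells Got1, of the malate-aspartate shuttle, fell by 0.73 (SE 0.14, adjusted p = 0.0023), and Gpd1 rose by 0.53 ± 0.13 (adjusted p = 0.0127). Among genes for expression of mitochondrial DNA and its nuclear regulators 1 of 23 rose and 2 fell in β-cells, beside 8.59% and 9.35% of all tested genes. Pnpt1 rose by 0.53 ± 0.11 (adjusted p = 0.00696) and Nrf1 itself fell by 0.41 (SE 0.11, adjusted p = 0.0221). In non-β-cells 1 of that list rose, Polg2, by 1.18 ± 0.22 (adjusted p = 0.0019), and 0 fell. Among the further respiratory chain genes outside the chosen symbols Foxred1 rose by 0.51 ± 0.14 in β-cells (adjusted p = 0.022). Sco2, a copper chaperone for complex IV, fell in both fractions, by 0.63 (SE 0.19, adjusted p = 0.0351) and 0.83 (SE 0.22, adjusted p = 0.0213).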

How the data were processed

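RNA of 12 islet cell samples was read as single-end, reverse-stranded libraries made with a low-input kit for total RNA. By the methods and processing notes of the study, the authors trimmed reads with fastp, quantified mouse transcripts with kallisto and summed them to genes with tximport, with tool versions not given in the sources used here. The deposited values are estimated counts per gene, which were rounded to whole numbers. Such estimates divide reads between near-identical genes, and bulk totals fix only relative levels.

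Genes with CPM above 1 in at least 3 samples (15598) entered the voom test of limma 3.58.1 (limma-voom; R 4.3.3) on TMM-scaled counts (edgeR 4.0.16) in 1 fit of all 12 samples with a mean per group and no covariate. The filter, TMM scaling and voom follow the study's methods. P-values are two-sided, with Benjamini-Hochberg adjustment over all tested genes and a threshold of 0.05. log2 changes are limma's, CPM is TMM-scaled, and errors are SE for differences and SD for means. Total counts were 13754913 to 27040436 per sample.

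Genes and lists were chosen with earlier results of these data known. The genes named are all mitochondrially encoded members, the 3 largest rises and falls among called nuclear members of each comparison, tissue forms with their general partners, core subunits of each complex and, in other lists, those with the lowest adjusted p over age. Copies are annotated genes that share at least 75% of their 31-base words with a member, and adding their counts was an alternative chosen after seeing the data. DESeq2 1.42.0, edgeR's quasi-likelihood test, other scalings and filters, a length and GC correction, a replicate block and omission of each library were further alternatives. The values of 1 called member are not reported here.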

Additional observations from a re-analysis of the deposited data

Results flagged for a closer look

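The age change in β-cells minus the age change in non-β-cells passed the limma-voom threshold for 4 respiratory chain genes, which marks them as differing between the fractions. For mt-Nd4 the difference on the log2 scale was 0.86 and for mt-Cytb it was 0.62, both with β-cells rising relative to non-β-cells. For Ndufa9 it was −0.84, with the fall in β-cells. For Cox6a2 it was 5.14 as fitted, a size that rests on 2 samples at 0 counts and is no fold change.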

How the results depend on the processing

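Nuclear genes stayed higher in β-cells under each alternative: 35 to 72 were called at 4 weeks and 53 to 81 at 8 weeks over settings other than omissions and the 2-fold minimum, which left 9 and 13, with at most 1 of them lower. Leaving out 1 library gave 35 to 62 and 33 to 76 called, with medians of 0.35 to 0.70 and 0.51 to 0.73. The same omissions gave 5 to 8 mitochondrially encoded calls at 4 weeks and 4 to 7 at 8 weeks, with medians of −0.68 to −0.33 and 0.10 to 0.37. For age in β-cells they gave 2 to 4 nuclear and 0 to 4 mitochondrially encoded calls, with medians of −0.22 to 0.17 and 0.25 to 0.36. For age in non-β-cells they gave 1 to 5 and 1 to 3, with medians of −0.28 to −0.03 and −0.44 to −0.23. For the difference of the age changes they gave 0 to 2 and 1 to 2, with medians of −0.05 to 0.34 and 0.46 to 0.67.

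The age counts of nuclear genes moved most. In β-cells (2 called) they were 4 with scaling by total counts, 14 with sample quality weights, 9 with the length and GC trend removed, 7 without both 4-week samples numbered 3, 4 at an adjusted p under 0.10 and 0 with a 2-fold minimum. In non-β-cells (3 called) they were 44 with the trend removed and 5 without both samples. With the trend removed 19.7% and 29.9% of all tested genes fell in β-cells and non-β-cells. For the difference of the age changes (2 called) they were 1 without a filter, 5 with quality weights, 6 with the trend removed, 4 without both samples and 1 with the 2-fold minimum. The cause was not tested.

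Mitochondrially encoded calls over age in β-cells (3) were 5 by DESeq2, with quality weights and at an adjusted p under 0.10, 1 with only the groups compared and 0 with the 2-fold minimum. Of all tested genes 11.1% rose and 11.9% fell by DESeq2, and 16.6% and 17.9% with quality weights. In non-β-cells (3) the mitochondrially encoded calls were 6 with the trend removed and without both samples, and 0 with the 2-fold minimum. Of all tested genes 10.3% rose and 29.9% fell there with the trend removed, and 13.3% and 8.64% without both samples. Between the fractions the mitochondrially encoded calls were 2 at 4 weeks with the 2-fold minimum. At 8 weeks (4) they were 7 with quality weights, with only the groups compared and without both samples, and 0 with the 2-fold minimum. Of all tested genes 30% were higher and 30.9% lower at 8 weeks with quality weights. The shares were 28.1% and 29.7% with only the groups compared, and 29.3% and 30% without both samples. For the difference of the age changes (2) the mitochondrially encoded calls were 7 with quality weights and without both samples, and 0 with the trend removed and with the 2-fold minimum. Of all tested genes 6.56% were higher and 8.73% lower by that measure with quality weights. Without both samples the shares were 3.72% and 5.61%. Their median changes with the trend removed were −0.31 in β-cells, −0.48 in non-β-cells, −0.37 between the fractions at 4 weeks, 0.023 at 8 weeks and 0.37 for the difference of the age changes. The 4-week median was −0.36 by edgeR and by DESeq2, and adding copies gave 0.42 for the difference of the age changes. mt-Atp8 at 8 weeks turned to −0.13 with the trend removed.

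Samples share only a replicate number. Between the fractions of the same age, same-numbered samples correlated at 0.0797, 0.133 and 0.306 at 4 weeks and at 0.0177, 0.0487 and 0.008 at 8 weeks. Not every sample correlated best with its own number there. Across ages within a fraction the correlations of same-numbered samples ran from −0.0063 to 0.124. With a replicate block 72 nuclear genes were called between the fractions at 4 weeks and 80 at 8 weeks, 8 mitochondrially encoded genes at 8 weeks and 9 for the difference of the age changes, and the 4-week mitochondrially encoded median was −0.38. Of all tested genes 29.8% were then higher and 28.9% lower at 4 weeks, and 28.8% and 29.7% at 8 weeks. For the difference of the age changes the shares of all genes were 5.61% and 7.73%. With the replicate block and the trend removed, nuclear calls were 17 over age in β-cells, 51 in non-β-cells and 9 for the difference, and mitochondrially encoded calls were 9 in non-β-cells and 6 for the difference. The mitochondrially encoded medians were −0.40 in β-cells, −0.48 in non-β-cells, −0.37 and 0.028 between the fractions, and 0.37 for the difference, and mt-Atp8 at 8 weeks was −0.17. Of all tested genes 8.46% then rose and 19% fell in β-cells, and 10.7% rose and 31.9% fell in non-β-cells. For the difference 14% of all genes were higher and 6.45% lower. Low counts limit mt-Nd6, Ndufa4l2 and Cox6a2.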
